A study of Mus musculus with 6 samples.

Results

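Accessible chromatin was examined around the Hedgehog response genes Gli1, Gli2, Gli3, Ptch1 and Hhip in distal forelimb buds that had or lacked HOX13 function. The regions described are the ATAC-seq peaks whose midpoint lay inside 1 of these 5 genes or within 200 kb of its GENCODE mm10 start site. This gave 143 of 61954 peaks, of which 34 belonged to Gli1, 26 to Gli2, 36 to Gli3, 35 to Ptch1 and 12 to Hhip, and no peak fell to more than 1 gene. In ATAC-seq, the transposase Tn5 inserts sequencing adapters into open chromatin, so that read density marks accessible DNA. All embryos were mice at E11.5 on a mixed C57Bl/6 x 129 background. Both wild-type libraries and both Hox13-/- libraries were made from distal forelimb buds, and each library held 50000 cells of 1 embryo, whose left and right buds had been pooled. Hox13-/- embryos carried null alleles of Hoxa13 (Hoxa13 Str) and Hoxd13 (Hoxd13 lacZ). Both genes are thus inactive in every cell of the mutant. In whole buds, fewer cells with an open site cannot be told apart from a site that is less open in each cell.

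Hedgehog ligands act through the receptor PTCH1, which in their absence holds the membrane protein SMO inactive. The response is carried by the GLI zinc finger proteins. Without ligand GLI3, and to a lesser degree GLI2, is cut to a repressor, and with ligand the full-length forms activate transcription. Gli1, Ptch1 and Hhip are themselves transcribed in response, so that GLI1 adds activator, while PTCH1 and the ligand-binding protein HHIP dampen the signal. In the limb bud Shh is produced at the posterior margin, and GLI3 repressor is known for its part in setting the number and identity of the digits.

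Accessibility is given as the rLog value that the authors deposited for each peak and library, which is on a log2 scale. A difference of 1 is a doubling on that scale. The values are shrunk towards each peak's mean, so 2-fold here refers to shrunken values. Differences are Hox13-/- minus wild type from limma across all peaks, with their standard error (SE), a 95% interval where given, and a two-sided adjusted p. A peak counted as lower or higher in the mutant where its adjusted p was under 0.05, and calls past 2-fold were counted apart. Distances are from a peak's midpoint to the annotated start of the gene, and "downstream" follows the direction of transcription.

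The sequences below are those of the peaks on which the results turn. They were read from GRCm38, which is mm10, on the plus strand, 5′ to 3′. The peaks at 86.3 and 191.3 kb are the higher and the lower intron peak of Gli3 with the smallest p, and the one at 81.1 kb, chosen after its values were seen, is a close neighbour that moved the other way. In these 3 stretches, each of 300 bases centred on the peak, neither of the motifs searched was present, and all letters are therefore in lower case.
Gli3 intron 81.1 kb, chr13:15544156-15544455: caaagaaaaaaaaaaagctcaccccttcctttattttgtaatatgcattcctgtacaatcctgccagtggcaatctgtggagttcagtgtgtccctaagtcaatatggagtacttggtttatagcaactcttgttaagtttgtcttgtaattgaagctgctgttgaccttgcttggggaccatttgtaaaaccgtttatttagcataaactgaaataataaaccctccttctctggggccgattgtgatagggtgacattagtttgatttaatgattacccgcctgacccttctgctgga
Gli3 intron 86.3 kb, chr13:15549372-15549671: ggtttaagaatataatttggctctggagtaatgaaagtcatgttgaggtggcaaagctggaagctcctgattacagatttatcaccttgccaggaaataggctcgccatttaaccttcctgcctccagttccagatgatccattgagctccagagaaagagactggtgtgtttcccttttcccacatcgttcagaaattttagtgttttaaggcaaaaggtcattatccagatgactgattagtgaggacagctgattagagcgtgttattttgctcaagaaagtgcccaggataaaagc
Gli3 intron 191.3 kb, chr13:15654359-15654658: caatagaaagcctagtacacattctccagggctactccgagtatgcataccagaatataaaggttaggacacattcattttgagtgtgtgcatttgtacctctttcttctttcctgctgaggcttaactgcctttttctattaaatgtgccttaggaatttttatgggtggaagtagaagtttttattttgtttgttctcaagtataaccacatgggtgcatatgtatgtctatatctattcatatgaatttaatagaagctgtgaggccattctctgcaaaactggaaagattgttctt

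The peak 119.7 kb upstream of Gli3 had the largest difference at that locus, and the peak in a Gli2 intron had the largest of all 143. Both were chosen after their values were seen. The upstream peak is shown as 200 bases around its HOX13-type word, which is in capitals, and the Gli2 peak as the 300 bases at its centre, which hold no such word.
Gli3 upstream 119.7 kb, chr13:15343633-15343832: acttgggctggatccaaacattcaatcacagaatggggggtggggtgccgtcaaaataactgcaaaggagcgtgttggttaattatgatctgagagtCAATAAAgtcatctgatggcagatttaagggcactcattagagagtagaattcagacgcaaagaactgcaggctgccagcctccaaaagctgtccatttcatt
Gli2 intron 148.5 kb, chr1:118904965-118905264: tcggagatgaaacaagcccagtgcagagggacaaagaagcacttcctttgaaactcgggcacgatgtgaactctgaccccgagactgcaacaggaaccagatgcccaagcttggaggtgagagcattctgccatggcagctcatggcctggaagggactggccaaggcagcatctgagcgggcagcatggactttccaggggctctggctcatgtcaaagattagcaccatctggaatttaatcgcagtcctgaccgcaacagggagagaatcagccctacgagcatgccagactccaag

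The GLI binding sequence GACCACCCA, in capitals, was found in 2 of the 143 peaks, both at Ptch1, and these sequences show its surroundings.
Ptch1 promoter 7.2 kb, chr13:63566229-63566528: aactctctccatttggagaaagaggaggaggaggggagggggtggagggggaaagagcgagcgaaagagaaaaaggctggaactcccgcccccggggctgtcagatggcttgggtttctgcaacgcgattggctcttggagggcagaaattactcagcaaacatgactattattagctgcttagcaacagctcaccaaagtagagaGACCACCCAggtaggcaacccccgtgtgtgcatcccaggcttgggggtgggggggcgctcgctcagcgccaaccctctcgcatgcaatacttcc
Ptch1 upstream 146.1 kb, chr13:63719692-63719791: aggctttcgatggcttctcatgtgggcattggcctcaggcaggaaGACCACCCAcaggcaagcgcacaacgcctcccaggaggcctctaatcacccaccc

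Of the 143 peaks, 7 were lower and 20 higher in Hox13-/-, and 116 were not called. Over all 61954 peaks 8.31% were lower and 11.4% higher, against 4.895% and 13.99% of the peaks at the 5 genes. Over all peaks, 5146 were lower and 7040 higher, and this split turned with median centring (6811 and 6017). It did not turn with quantile scaling (5375 and 6365) or cyclic loess scaling (5017 and 6577). At the 5 genes the 7 lower and 20 higher peaks became 10 and 18, 8 and 18, and 7 and 18 with these scalings in turn. Past 2-fold there was 1 peak, a higher one in Gli2, where 0.224% of all peaks were lower and 0.313% higher by that measure. At 36 of the 143 peaks both wild-type values exceeded both mutant values, and at 44 the reverse held, where 29.6% and 29.7% of all peaks did so. The median difference was 0.03 at the 5 genes and -0.01 over all peaks. The shares at the 5 genes were not tested against those of all peaks.

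Called peaks lay outside the promoters of the 5 genes. Among the 105 peaks more than 1 kb from any start site, 4 were lower and 20 higher, where 8.24% and 15.7% of all such peaks were. Among the 38 promoter peaks 3 were lower and 0 higher, with a background of 8.45% and 1.48%, and these 3 were at promoters of other genes. The limma test called 0 of the 12 promoter peaks of the 5 genes themselves. Of these 12, 1 had an unadjusted p under 0.05, as did 4071 of all 18778 promoter peaks. By gene, Gli1 had 2 lower and 0 higher peaks, Gli2 0 and 6, Gli3 3 and 7, Ptch1 1 and 4, and Hhip 1 and 3.

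**Figure D1:**
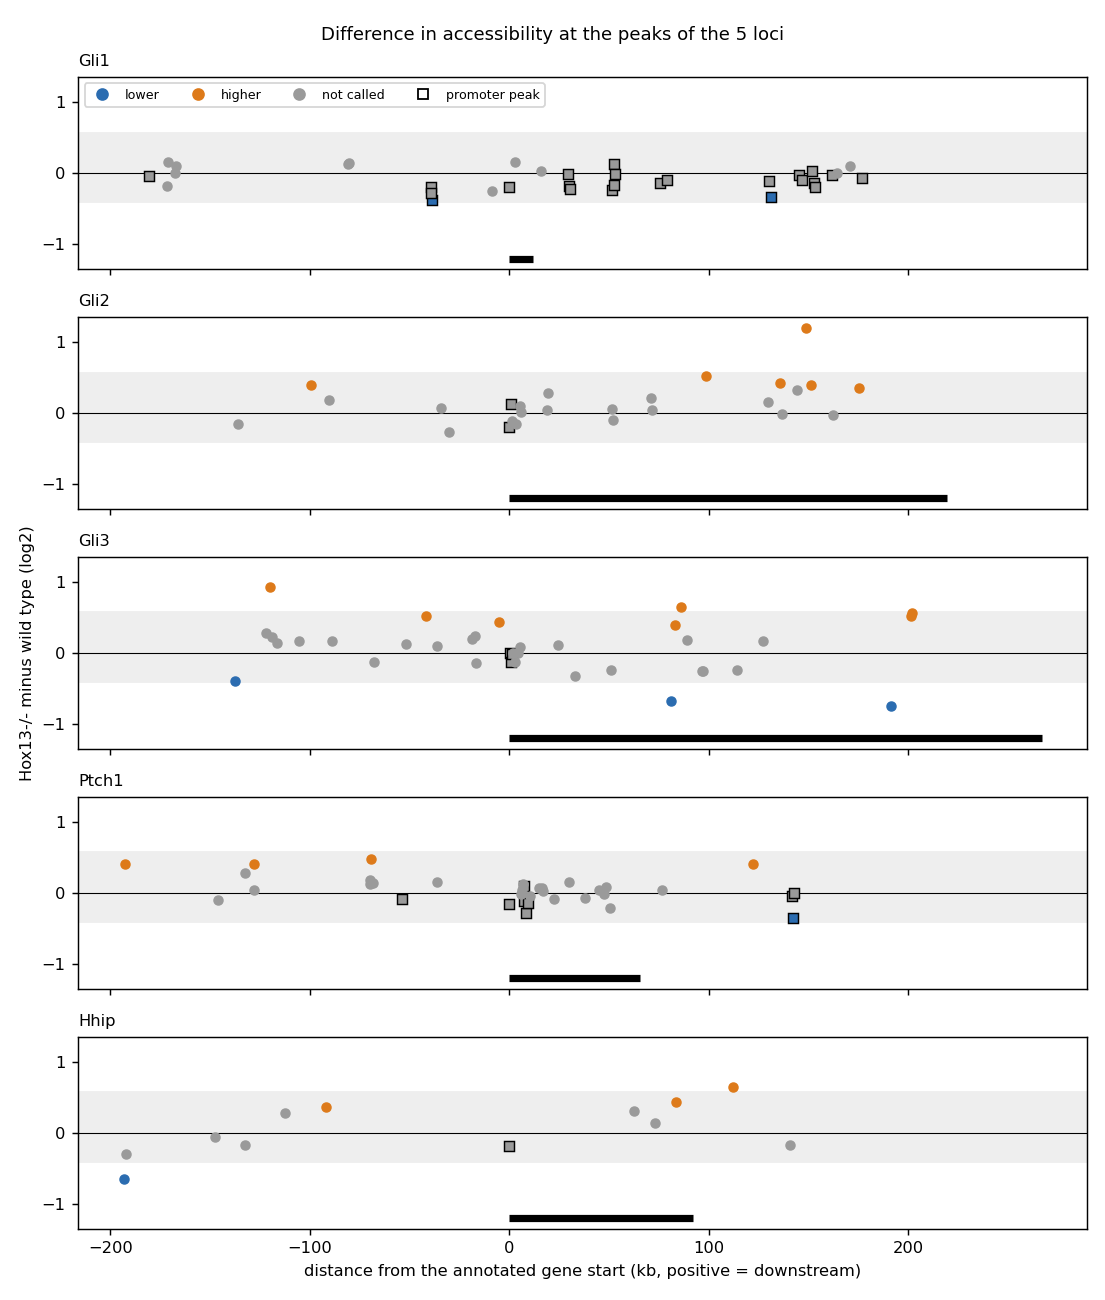
Difference in rLog accessibility (Hox13-/- minus wild type, log2, vertical axis) of every peak at the 5 genes, against its distance in kb from the annotated gene start (horizontal axis). Squares are promoter peaks of any gene, black bars are gene bodies, and the grey band spans the 5th to 95th percentile of all peaks outside promoters (-0.41 to 0.57). The same range for all promoter peaks, which is not drawn, was -0.37 to 0.18. The 2 lower peaks of the Gli1 panel are squares, and the highest point of the 5 panels is the Gli2 intron peak at 1.19.

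Gli3, which encodes the main GLI repressor of the limb bud, runs over chr13:15463235-15730026 on the plus strand. Its introns held 18 peaks, of which 2 were lower and 4 higher in Hox13-/-, while 8.21% of all intron peaks were lower and 15.8% higher. The median difference of the 18 was 0.00, and the values ran from -0.74 to 0.64. The 6 called peaks lay in the stretches from 81.1 to 86.3 kb and from 191.3 to 201.8 kb downstream of the start. Each stretch held both directions.

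In the first stretch, the peak at 81.1 kb (chr13:15544044-15544569) had rLog values of 6.03 and 6.25 in wild type against 5.42 and 5.52 in Hox13-/-. Both wild-type libraries were above both mutant ones, and the difference was -0.68 (SE 0.13, adjusted p = 5.8e-06). The peak at 86.3 kb (chr13:15549256-15549789) went the other way, with 5.36 and 5.57 in wild type against 6.03 and 6.18 in Hox13-/-, a difference of 0.64 (SE 0.13, adjusted p = 2.1e-05). Their midpoints are 5216 bp apart and they are nearly equal in length, at 526 and 534 bp. Within each library, the first peak stood above the second by 0.68 in both wild-type libraries and below it in both Hox13-/- libraries, at -0.61 and -0.66. The more accessible of the pair was thus the first in wild type and the second in the mutant. This comparison was chosen after the values were seen and has no test of its own.

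Between them, the peak at 83.0 kb (chr13:15546141-15546409) had 4.44 and 4.69 in wild type against 4.86 and 5.07 in Hox13-/-, and was called higher with a difference of 0.40 (SE 0.13, adjusted p = 0.017). Its call was lost without wild-type replicate 1 (0.27, adjusted p = 0.29) or without Hox13-/- replicate 2 (0.29, adjusted p = 0.24), whereas its neighbours at 81.1 and 86.3 kb were called with any 1 library left out. A further peak just beyond the stretch, at 89.3 kb, measured 6.02 and 5.85 in wild type against 6.22 and 6.01 in Hox13-/-. Its libraries overlapped between genotypes and its difference of 0.18 was not called (95% interval -0.07 to 0.43).

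In the second stretch, the peak at 191.3 kb (chr13:15654313-15654705) had 5.11 and 4.81 in wild type against 4.17 and 4.27 in Hox13-/-. This was the lowest difference of the 143 peaks, at -0.74 (SE 0.13, adjusted p = 6.9e-07). A further 10476 bp on, the peak at 201.8 kb (chr13:15664809-15665162) had 5.99 and 5.90 in wild type against 6.52 and 6.50 in Hox13-/-, a difference of 0.56 (SE 0.13, adjusted p = 2.5e-04). Both peaks were called with any 1 library left out. Of this pair the downstream peak was the more accessible in every library, and the first minus the second was -0.89 and -1.10 in wild type against -2.35 and -2.23 in Hox13-/-. The peak at 201.2 kb (chr13:15664311-15664525) was weaker, with 3.52 and 3.62 in wild type against 4.22 and 3.95 in Hox13-/-. It was called higher at 0.52 (SE 0.13, adjusted p = 5.4e-04), and this call was lost without Hox13-/- replicate 1 (0.38, adjusted p = 0.067).

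**Figure D2:**
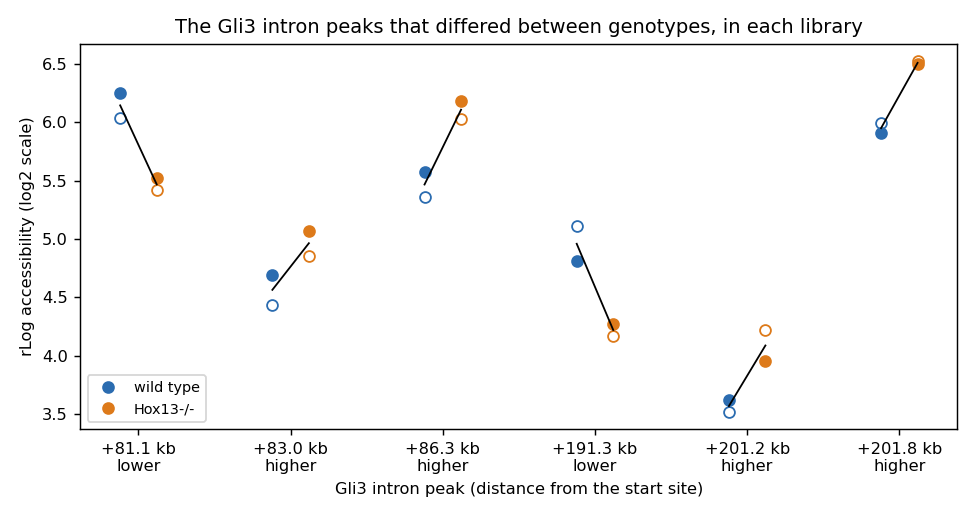
rLog accessibility (log2 scale, vertical axis) of the 6 called Gli3 intron peaks in each of the 4 libraries, ordered by distance from the start site. Open circles are replicate 1, filled circles replicate 2, and lines join the genotype means. Lines fall at 81.1 and 191.3 kb and rise at 83.0, 86.3, 201.2 and 201.8 kb.

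The other 12 Gli3 intron peaks were not called. The lowest of these differences, -0.33, belonged to a peak at 32.8 kb with 4.63 and 4.57 in wild type against 4.14 and 4.40 in Hox13-/-, and its adjusted p was 0.059. With libraries centred on their medians 4 Gli3 intron peaks were lower in place of 2. The 4 intron peaks from 2.0 to 5.4 kb, nearest to the promoter, had differences of -0.12 to 0.08, and their libraries overlapped between genotypes.

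Upstream of Gli3 lay 15 intergenic peaks, of which 1 was lower and 3 higher, against 8.39% and 16.2% of all intergenic peaks. The peak 119.7 kb upstream (chr13:15342886-15344176) had the largest difference of the locus. It measured 6.77 and 6.95 in wild type against 7.72 and 7.87 in Hox13-/-, so that the mutant libraries lay above both wild-type ones, and it rose by 0.93 (SE 0.13, adjusted p = 1.4e-11). It was called with any 1 library left out. It also had the highest rLog of the 33 Gli3 peaks outside the promoter, being 1291 bp long, while per length its level of 6.96 was below the 7.73 of the intron peak at 201.8 kb. Of the 300 bases at its centre, 53.3% are runs of CA or CT repeats, and the part of such repeats in its value was not tested.

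The remaining called upstream peaks were weaker. The peak 41.6 kb upstream (chr13:15421490-15421823) had 4.18 and 3.83 in wild type against 4.50 and 4.53 in Hox13-/-, a difference of 0.51 (SE 0.13, adjusted p = 9.4e-04). The peak 5.3 kb upstream (chr13:15457743-15458144), the called peak nearest to the Gli3 start, had 5.23 and 5.07 against 5.69 and 5.48, a difference of 0.43 (SE 0.13, adjusted p = 0.0085). Only the peak 137.6 kb upstream (chr13:15325441-15325737) was called lower among the 15, with 5.10 and 5.26 in wild type, 4.66 and 4.92 in Hox13-/-, and a difference of -0.39 (SE 0.13, adjusted p = 0.020). These 3 calls each depended on single libraries. The first was lost without wild-type replicate 2, where it was 0.34, and the second and the third without either wild-type replicate 2 or Hox13-/- replicate 1, where their lowest sizes were 0.33 and -0.26.

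**Figure D3:**
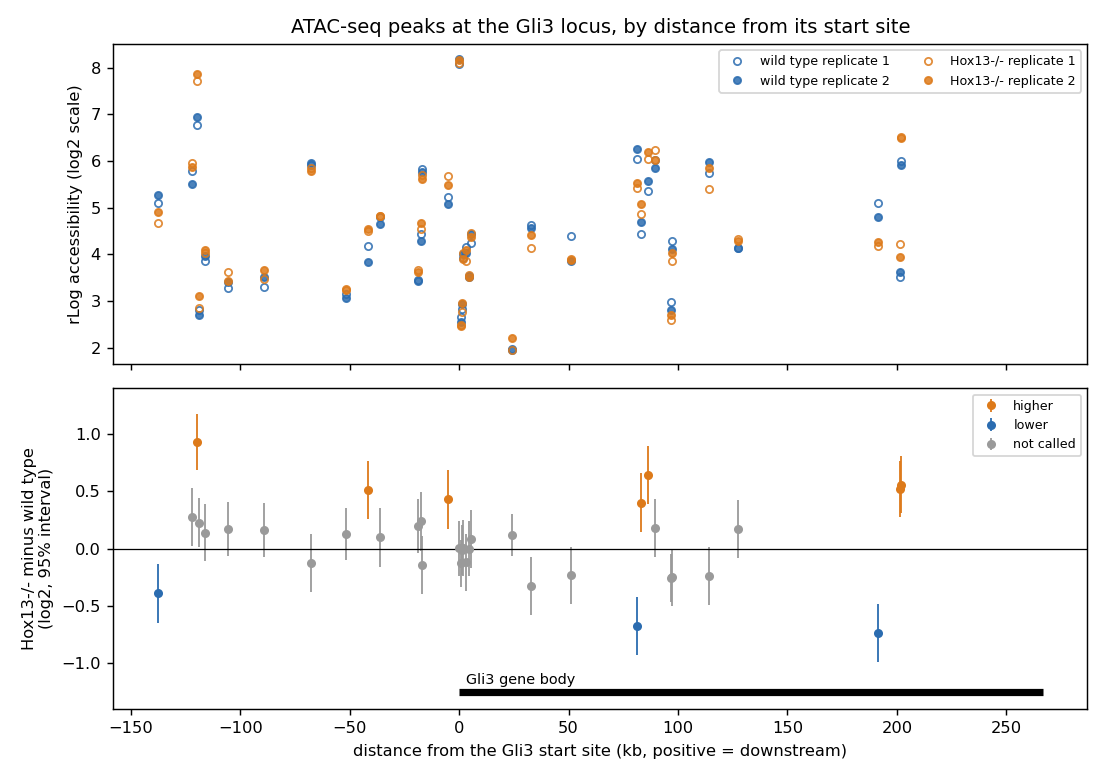
The 36 peaks of the Gli3 locus by distance from the Gli3 start site in kb. The upper panel gives rLog accessibility (log2 scale) in each library, and the lower panel the difference, Hox13-/- minus wild type, with its 95% limma interval. The promoter peak lies between 8.07 and 8.19 in the 4 libraries, and the lower points at 81.1 and 191.3 kb each have higher ones within 10476 bp downstream.

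At the Gli3 promoter itself (chr13:15462704-15463987), accessibility was 8.07 and 8.19 in wild type against 8.11 and 8.16 in Hox13-/-. The genotypes overlapped, and the 95% interval of the difference of 0.00 ran from -0.24 to 0.24. The smaller promoter peaks, 0.9 and 1.3 kb into the gene, had differences of -0.13 (-0.33 to 0.07) and -0.01 (-0.23 to 0.20). The sign of the first and the last of these 3 values turned with single libraries left out, and that of the first with the scaling, so no direction is given for them.

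Gli2, which encodes an activator that is in part processed to a repressor, runs over chr1:118834132-119053619 on the minus strand. Of its 26 peaks 6 were higher (23.1%) and 0 lower in Hox13-/-, against 11.4% and 8.31% of all peaks. An unadjusted p under 0.05 was found at 9 of the 26, and at 19709 of all 61954 peaks. The peak 148.5 kb downstream of the start, in an intron (chr1:118904598-118905632), was the largest change at the 5 genes. It had 6.33 and 6.39 in wild type against 7.52 and 7.59 in Hox13-/-. The gap between the genotypes was far wider than that between replicates, and the difference was 1.19 (SE 0.13, adjusted p = 2.7e-18), within 1.16 to 1.23 with any 1 library left out. The peak caller had found it in each mutant library but in no wild-type one. Its rLog in wild type was above the median of all peaks, but rLog is not corrected for length. This peak is 1035 bp long, against a median of 250 bp for all peaks.

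The other called Gli2 peaks were smaller. The intron peak at 98.6 kb (chr1:118954792-118955292) had 5.21 and 5.19 in wild type against 5.81 and 5.63 in Hox13-/-, a difference of 0.52 (SE 0.13, adjusted p = 0.0010), and its call was lost without Hox13-/- replicate 1 (0.43, adjusted p = 0.059). At 135.8 kb the values were 4.23 and 4.36 against 4.65 and 4.79, at 151.2 kb 6.21 and 6.20 against 6.56 and 6.63, and at 175.2 kb 5.66 and 5.63 against 5.88 and 6.10. These intron peaks rose by 0.35 to 0.43, as did the intergenic peak 99.5 kb upstream with 0.40. Of these 4 calls, none held with each library left out in turn, and that at 175.2 kb was lost with each of the 3 other scalings (0.30 to 0.33). All 5 called intron peaks thus lay at 98.6 to 175.2 kb, in a gene of 219.5 kb. The 10 intron peaks nearer to the start were taken as those before the first called one, so none is called by this choice. Their differences were -0.16 to 0.29, and 1 had an unadjusted p under 0.05, a count which that choice also lowers.

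Its most accessible intron peak, at 70.9 kb, measured 6.86 and 7.18 in wild type against 7.30 and 7.17 in Hox13-/-, and the difference of 0.22 was not called (95% interval -0.03 to 0.46). The Gli2 promoter (chr1:119053386-119054338) had 7.57 and 7.47 in wild type against 7.44 and 7.21 in Hox13-/-. Both wild-type libraries were above the mutant ones, yet the difference of -0.20 was not called (95% interval -0.45 to 0.04). The small promoter peak 0.8 kb into the gene, with 4.57 and 4.26 against 4.56 and 4.53, had a difference of 0.13 that turned to -0.03 without wild-type replicate 2.

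Gli1, which encodes an activator and is a common read-out of the signal, is a short gene of 12.1 kb (chr10:127329882-127341974, minus strand) in a gene-dense region. Of its 34 peaks 22 lay at promoters of 13 other genes. The promoter peak of Gli1 (chr10:127342196-127342554) had 5.63 and 5.60 in wild type against 5.54 and 5.29 in Hox13-/-, and its difference of -0.20 was not called (95% interval -0.46 to 0.05). The only intron peak, at 2.8 kb, was the stronger one, with 6.40 and 6.60 against 6.75 and 6.56 and a difference of 0.16 (-0.09 to 0.41). The 2 called peaks of the region were at the promoters of R3hdm2 (6.53 and 6.51 in wild type, 6.32 and 5.97 in Hox13-/-, difference -0.38, adjusted p = 0.023) and Pip4k2c (4.04 and 3.82 against 3.52 and 3.69, difference -0.33, adjusted p = 0.045). Both calls held in 1 of the 4 fits with a library left out, in which the lowest sizes were -0.20 and -0.22. No Gli1 peak outside a promoter was called among 11, where 8.24% of all such peaks were lower and 15.7% higher.

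Ptch1, which encodes the receptor, runs over chr13:63508328-63573598 on the minus strand. Its gene record starts upstream of the transcripts of the basic annotation, and 4 of its 5 promoter peaks therefore lie 7.2 to 9.2 kb downstream of the gene start. Of 35 peaks 4 were higher (11.4%) and 1 lower (2.86%), against 11.4% and 8.31% of all peaks. The lower one was the promoter of Fancc, 142.4 kb away, with 6.71 and 7.04 in wild type, 6.57 and 6.48 in Hox13-/- and a difference of -0.35 (SE 0.13, adjusted p = 0.034). This call held in 1 of the 4 fits with a library left out and was lost with 1 of the 3 other scalings.

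The higher peaks all lay outside the gene. The one 69.2 kb upstream (chr13:63642684-63643002) had 5.92 and 5.97 in wild type against 6.25 and 6.59 in Hox13-/-, a difference of 0.47 (SE 0.13, adjusted p = 0.0027), which fell to 0.30 (adjusted p = 0.21) without Hox13-/- replicate 2. The one 127.7 kb upstream (chr13:63701121-63701530) had 4.55 and 4.78 against 4.85 and 5.30, a difference of 0.41 (SE 0.13, adjusted p = 0.013), which was 0.18 (adjusted p = 0.50) without the same library and lost its call without wild-type replicate 1 as well. The peaks 192.6 kb upstream and 122.2 kb downstream were both higher by 0.40, and neither held with each library left out. The peaks inside the gene were mostly shorter and weaker, and inside and outside were not tested against each other. Intron peaks of Ptch1 had a median length of 136 bp and a median rLog of 3.52, against 260.5 bp and 4.55 for its intergenic peaks. The limma test called 0 of the 13 intron peaks of Ptch1, where 8.21% of all intron peaks were lower and 15.8% higher. Of the 13, 0 had an unadjusted p under 0.05, against 7118 of all 19596 intron peaks. Their differences ran from -0.09 to 0.15.

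The intron peak at 5.6 kb (chr13:63567577-63568362) was the most accessible of the Ptch1 region. It had 7.67 and 7.76 in wild type against 7.72 and 7.68 in Hox13-/-, and the interval of its difference, -0.02, ran from -0.26 to 0.22. Its sign turned with quantile and cyclic loess scaling. The promoter peak with the GLI sequence (chr13:63566136-63566622) had 6.20 and 6.21 in wild type against 6.28 and 6.32 in Hox13-/-, a difference of 0.10 (-0.16 to 0.35). The GLI sequence starts at position 63566435, 700 bp upstream of the nearest basic start site. The promoter peak at 8.4 kb (chr13:63564833-63565606), with 6.43 and 6.52 against 6.27 and 6.13, was the promoter peak with an unadjusted p under 0.05. Its difference of -0.28 (-0.53 to -0.03) did not pass after adjustment (adjusted p = 0.11).

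Hhip, which encodes a membrane protein that binds Hedgehog ligands, runs over chr8:79965851-80058006 on the minus strand, and 12 peaks belonged to it. The peak 193.0 kb upstream (chr8:80250895-80251148) had 4.60 and 4.77 in wild type against 4.16 and 3.90 in Hox13-/-, a difference of -0.66 (SE 0.13, adjusted p = 1.3e-05). It was found by the peak caller in both wild-type libraries and in neither mutant one. The peak 112.1 kb downstream of the start, past the end of the gene (chr8:79945636-79946174), had 5.17 and 5.46 against 6.07 and 5.85, a difference of 0.64 (SE 0.13, adjusted p = 2.0e-05). Both were called with any 1 library left out.

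In the body of Hhip the 3 intron peaks had both Hox13-/- libraries above both wild-type ones, as did 39.1% of all intron peaks. The peak at 83.4 kb was called higher, with 4.67 and 4.66 in wild type, 5.27 and 4.94 in Hox13-/- and a difference of 0.44 (SE 0.13, adjusted p = 0.0076), and lost its call without wild-type replicate 2 or Hox13-/- replicate 1 (0.27, adjusted p = 0.27, in the latter). Those at 62.6 and 72.8 kb were not called, at 0.30 and 0.14. The intergenic peak 91.6 kb upstream was called at 0.36 and lost the call in all 4 fits with a library left out and under the 3 other scalings. The Hhip promoter had 5.28 and 5.04 in wild type against 4.85 and 5.11 in Hox13-/-, and its difference of -0.18 was not called (95% interval -0.44 to 0.08).

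Set side by side, the 12 promoter peaks of the 5 genes had differences of -0.28 to 0.13 with a median of -0.14, where the median of all promoter peaks was -0.11. With rLog reduced by the log2 of the peak's length in kb, and each gene taken at its promoter peak with the highest such level, the promoters ranked Gli3 (7.71 to 7.83 over the 4 libraries), Gli2 (7.28 to 7.64), Ptch1 (peak at 7.2 kb, 7.23 to 7.36), Gli1 (6.77 to 7.11) and Hhip (6.61 to 7.04). In this order of levels per length, Gli2 and Ptch1 overlapped, as did Gli1 and Hhip, and the other neighbours did not. The place of Ptch1 rests on this choice, since its peak at 8.4 kb, the one with the highest rLog before the correction for length, had 6.50 to 6.89 per length, overlapped Gli1 and Hhip and would rank last. For the promoter peak of each gene with the highest rLog, which for Ptch1 is that at 8.4 kb, the promoters with the most alike pattern over the 4 libraries, by Euclidean distance of rLog, were those of Senp6 and Tfeb for Gli1, Col4a3bp and Mettl26 for Gli2, Canx and Ccnyl1 for Gli3, Nr4a3 and Nomo1 for Ptch1, and Tob2 and Top3a for Hhip, at distances of 0.042 to 0.098.

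**Figure D4:**
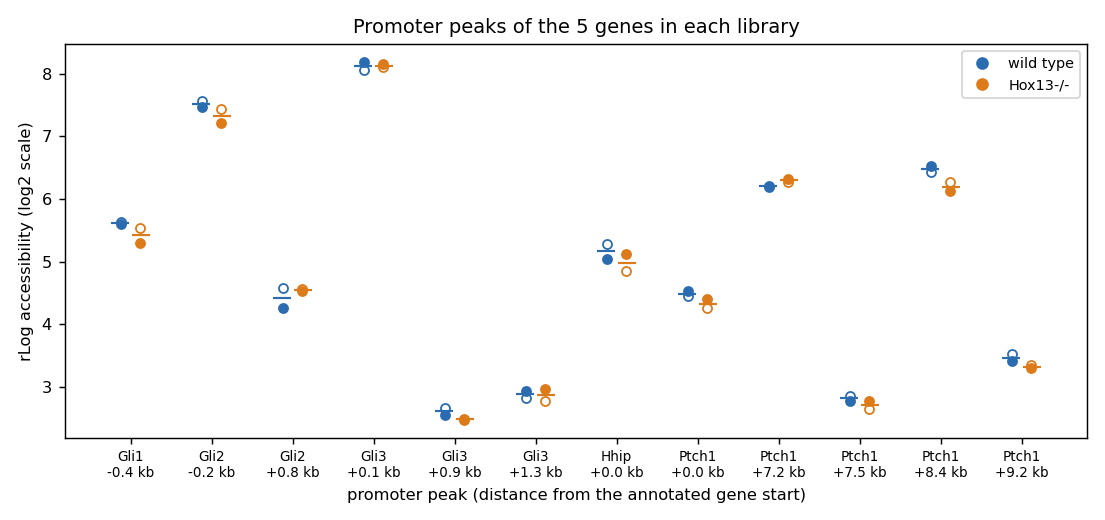
rLog accessibility (log2 scale, vertical axis) of the 12 promoter peaks of the 5 genes in each library, with the distance of each peak from the annotated gene start. Open circles are replicate 1, filled circles replicate 2, and short lines genotype means. Genotype means differ by at most 0.28, at the Ptch1 peak at 8.4 kb.

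The peak caller, which was run on each library, had found 23 of the 143 peaks in each mutant library but in no wild-type one, and 3 in the opposite way. Of the 23, 12 were called higher by limma, and 11 were not called. Over all 61954 peaks, 6937 were found in each mutant library only and 1848 in each wild-type library only. How many of these limma called was not counted. The yield of the caller differed between libraries, with 62.0% and 44.0% of all peaks found in the wild-type libraries against 62.3% and 73.6% in the mutant ones, and the part of this yield in the 23 was not tested. Being found in 1 genotype alone was therefore not the same as being called by limma. A peak that was not called may still differ in level, as with the Gli2 intron peak at 144.4 kb. It had 3.98 and 4.22 in wild type against 4.27 and 4.58 in Hox13-/- (limma adjusted p = 0.061).

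Sequence words were searched on both strands as exact matches. The GLI word GACCACCCA was present in 2 of the 143 peaks, against 0.353% of all peaks, and both peaks were among those not called. The one 146.1 kb upstream of Ptch1 differed by -0.09. In 200 bp around the midpoints the word was present at 4 of the 143, against 0.252% of all peaks, since short peaks at the promoter of Kif5a, in the Gli1 region, and at the Ptch1 gene start then had it beside them. The HOX13-type words searched were CAATAAA, which contains the polyadenylation signal, together with TCGTAAA and the related form TCATAAA. They were in 17 of the 143 peaks (11.9%) and in 12.8% of all peaks. Such words were in 1 of the 7 lower peaks, the Fancc promoter, and in 5 of the 20 higher ones, among them the upstream Gli3 peaks at 119.7 and 5.3 kb. The higher peaks were longer, with a median of 379 bp against 250 bp for all peaks, and in 200 bp around the midpoints, a width equal for all, a word was present in 0 of the 7 and 1 of the 20, against 9.69% of all peaks. Among the 18 Gli3 intron peaks 2 held one, at 89.3 and 97.3 kb, and neither of these was called. Of the 32851 RefSeq promoters of 300 bases (GRCm38.p6), 0.253% held the GLI word and 8.57% a HOX13-type word. Gli2, Gli3, Ptch1 and Hhip matched this table by symbol, and their promoters held neither.

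Other genes of the pathway gave the setting. A list of 28 genes, from ligands to cilium components, had 561 peaks by the same rule, of which 50 were lower (8.91%) and 44 higher (7.84%), against the 8.31% and 11.4% of all peaks. Their median difference was -0.04, against -0.01 over all peaks. Genes for ligands and their release had 16 lower and 15 higher of 169 peaks, those for receptors and coreceptors 12 and 19 of 163, and intracellular components 22 and 10 of 233. Past 2-fold, an intron peak of Ift88, needed for transport in cilia, was lower (5.40 and 5.42 in wild type, 4.26 and 4.09 in Hox13-/-, difference -1.23), as was an intron peak of Sufu, which holds GLI proteins in check (5.18 and 5.17 against 4.14 and 4.20, adjusted p = 3.1e-12). An intron peak of Scube1, whose family aids ligand release, was higher (6.01 and 5.71 against 6.90 and 6.84, difference 1.01). At promoters of the listed genes 3 of 33 peaks were lower and 0 higher, with the promoter background of 8.45% and 1.48%. These were Scube3 (7.01 and 7.00 against 6.55 and 6.12, difference -0.67), Hhat, which acylates the ligands (-0.42), and Prkaca, the catalytic subunit of a kinase that promotes GLI processing (-0.35). The ligand gene Shh had 3 peaks, of which 1 was higher, at 0.65, where 11.4% of all peaks were higher. Regions more than 200 kb from the Shh start were not covered.

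The window of 200 kb sets which peaks belong to a gene. The farthest peak outside a gene body that it takes in, 193.0 kb from Hhip, differed by -0.66, and the nearest one beyond, 205.7 kb from Hhip, by -0.49. Within 100 kb of the start sites or inside the genes, 3 peaks were lower and 15 higher. Over all peaks 8.31% were lower and 11.4% higher, and no share was computed for the narrower window.

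Over all peaks, the rLog values of replicates had a correlation of 0.993 in both genotypes, and the medians of the libraries, after the authors' scaling, were 4.70 to 4.74. Of the markers of the bud's cell types, promoter peaks were present at 5 of 5 limb mesenchyme genes, with genotype means of 3.81 to 7.10, and Twist1 among them was lower in Hox13-/- (6.14 against 5.73, adjusted p = 0.014). There were peaks at 1 of 5 ectoderm promoters (Epcam, 2.80 and 2.65), 1 of 4 of muscle precursors (Myod1), 2 of 4 of endothelium (Kdr and Tek) and 0 of 4 of blood, and none of these was called. Gata1, in the blood list, is X-linked, and the table holds autosomes only. The part of cell makeup in the differences above was not tested. At the promoters of the inactivated genes, accessibility was 5.71 and 5.95 in wild type against 5.66 and 5.84 in Hox13-/- for Hoxa13, and 4.35 and 4.34 against 3.99 and 4.17 for Hoxd13, which does not check the null alleles.

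With 2 libraries per genotype, 0.333 is the smallest p of an exact permutation test. The limma values take their error almost wholly from the other peaks, so an SE, interval or p hardly reflects a peak's own replicate spread. For instance, the Ptch1 intron peak at 48.3 kb had 6.58 and 7.29 in Hox13-/-, and its SE was 0.13. The Gli2 intron peak at 148.5 kb, with 7.52 and 7.59, also had an SE of 0.13. Of the 27 called peaks, 8 were called with each library left out in turn. These were the Gli3 peaks at 81.1, 86.3, 191.3 and 201.8 kb and 119.7 kb upstream, the Gli2 peak at 148.5 kb, and the Hhip peaks 193.0 kb upstream and 112.1 kb downstream. Each fit with a library left out also called fewer lower and fewer higher peaks over the whole set than the main fit. The share of all called peaks that kept their call in every such fit was not computed. Whether the calls at these loci were more or less stable than others was thus not tested.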

How the data were processed

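ATAC-seq had been performed on distal forelimb buds of 2 wild-type and 2 Hox13-/- embryos at E11.5; 2 proximal libraries were not analysed here. Per the labels and the study's methods, the authors aligned reads to mm10 with bowtie2 2.3.1, called peaks in each library with MACS2 2.1.1.20160309, merged them with HOMER 4.9.1 and ran DESeq2 through it. The handling of duplicates, blacklisted regions and the Tn5 offset is not given in the sources used here. The deposited values used are rLog values, on a log2 scale, per peak and library, on 19 autosomes. They are scaled for library size and shrunk towards each peak's mean, which lessens the differences of weak peaks. Depth per peak is unknown, since rLog values give no reads; the study states read totals per library, which were not used here. The authors also deposited a fold change, a p and an adjusted p for each peak, which were not used. Replicates are single embryos.

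Differences came from a limma 3.58.1 fit (R 4.3.3) to the 61954 peaks, which had a variance trend, 1 genotype term, two-sided tests and Benjamini-Hochberg adjustment. In simulated data of 61954 peaks, only 200 were changed, and noise was drawn independently from the fitted variances. There, 101 of 200 peaks with a true log2 change of 0.5 were recovered, with 7 false calls. At a change of 1.5, 200 of 200 were, with 12 false calls. In the data 5146 peaks were lower and 7040 higher, so the adjusted threshold was less strict, and the recovery there was not measured. Promoters are peaks within 1 kb of a GENCODE M21 basic start site, or of the gene record of the 5 genes. File coordinates were read as counted from 1. Sequence came from GRCm38 through pysam 0.24.0, and other steps used Python 3.11.15, pandas 2.3.3, numpy 2.4.6, scipy 1.17.1 and matplotlib 3.10.9.

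The genes, the pathway and marker lists, the motifs and the tests were chosen with earlier results of these data known, and 1 marker list is not reported here. Peaks named are the promoter peaks and the most accessible other peak of each gene, the called peaks of smallest p per gene and in the Gli3 introns, called promoters of other genes, and those past 2-fold; others were named after their values were seen. Alternatives were median centring, quantile and cyclic loess scaling, no trend, filters keeping the upper 75% or 50% of peaks by mean rLog, the replicate number as a block, an adjusted p under 0.01, more than 1.5-fold, a window of 100 kb, motifs within 200 bp of midpoints, and leaving out each library.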

Additional observations from a re-analysis of the deposited data

How the results depend on the processing

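The counts of 7 lower and 20 higher peaks were 10 and 18 with median centring, 4 and 16 among the upper 50% of peaks by mean rLog, 3 and 12 at an adjusted p under 0.01, 3 and 4 past 1.5-fold, and 3 and 15 within 100 kb. Leaving out 1 library gave 4 to 6 lower and 11 to 15 higher peaks, with 4 lower without Hox13-/- replicate 1, 12 higher without wild-type replicate 2 and 11 without Hox13-/- replicate 2. The Gli3 intron counts of 2 lower and 4 higher were 4 lower with median centring, 1 lower in the upper 50% of peaks and 1 higher past 1.5-fold, and 2 to 4 lower and 3 to 4 higher with 1 library left out (4 lower without Hox13-/- replicate 2). Stricter thresholds, filters and windows test or keep fewer peaks by construction. Fits with 1 library left out hold only 1 library of that genotype, and their SE is larger. For the Gli2 intron peak at 148.5 kb it was 0.15 to 0.16 in these fits, against 0.13 in the main one. The cause of the other shifts was not tested. Over 35 named peaks and all settings, 338 values kept direction and side of the threshold, 22 values of 11 peaks were no longer past it, and 10 values of 4 peaks, none of them called, changed sign. With median centring the Gli3 promoter peak at 0.1 kb was -0.032, and the Ptch1 intron peak at 5.6 kb was 0.048 with quantile and 0.080 with cyclic loess scaling. With 1 library left out, the sign changed for the Gli2 promoter peak at 0.8 kb (-0.029 to 0.284), the Gli3 promoter peaks at 0.1 kb (-0.061 to 0.065) and 1.3 kb (-0.108 to 0.081) and the same Ptch1 peak (-0.063 to 0.023). With the replicate number as a block the counts were 7 lower and 20 higher, and 2 and 4 in Gli3 introns, and all 27 calls were shared. Deviations of same-numbered libraries had a correlation of -0.011. With 2 libraries per genotype, the crossed pairing has the same value with its sign turned (0.011). Whether same-numbered libraries shared more than a number cannot be told from this. Within 200 bp of midpoints 9 peaks held a HOX13-type word in place of 17 (0 in place of 1 lower and 1 in place of 5 higher), and 4 the GLI word in place of 2. Of the 143 peaks, 70 lay below the median level of all peaks, where shrinkage limits what can be called.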
